A study of Glycine max with 6 samples.

Results

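Rubisco fixes carbon dioxide in the Calvin cycle, and in soybean leaves its small subunit is made from a few nuclear gene copies. GLYMA_19G046800, GLYMA_19G046600 and GLYMA_13G046200 are such copies in soybean (Glycine max). These 3 genes, of 45967 in the deposited table, were chosen from their annotated ribulose-bisphosphate carboxylase activity and from their measured abundance and change between groups, so their levels and changes are given as a description, with no test. Leaves of the cultivar HN95 under saline-alkaline stress were compared between 3 control libraries and 3 libraries from plants whose leaves were sprayed with MSN, mesoporous silica nanoparticles, which are particles of silicon dioxide with fine pores. All plants carry a wild-type (WT) genotype tag, and both groups grew in pots of 20 kg of soil that received 3 L of saline-alkaline solution, with NaCl and Na2CO3 at 40 mM each and NaHCO3 and Na2SO4 at 320 mM each. The spray protocol gives 20 mg/L, whereas the treatment tags read 20, 21 and 22 mg/L on MSN replicates 1, 2 and 3, and RNA was taken on day 7 after the spray. The labels do not say what, if anything, the control leaves were sprayed with, nor how old the plants were, and all 6 libraries carry 1 batch tag. No library comes from unstressed plants, so the comparison is between MSN and control plants under the same stress.

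The holoenzyme joins large subunits, encoded by a chloroplast gene, with small subunits that are made in the cytosol and imported into the chloroplast. Small subunit messages are among the most abundant in green leaves and are known to respond to light, sugar status and leaf age. Rubisco activase clears inhibitors from the active site, carbonic anhydrase (carbonate dehydratase) interconverts carbon dioxide and bicarbonate, and the other Calvin cycle enzymes regenerate the acceptor ribulose bisphosphate. The chloroplast gene of the large subunit was not analysed here. Messenger RNA was selected by its poly(A) tail, so the values concern nuclear transcripts and not the amount or activity of the enzyme.

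The table assigns all 3 genes to the KEGG orthology group of the Rubisco small subunit, K01602, and gives them the same 8 Gene Ontology (GO) terms and the same 5 KEGG pathways. GLYMA_19G046800 lies on the plus strand of chromosome 19 at 7253610 to 7254976, a span of 1367 bp with 1 annotated transcript. GLYMA_19G046600 lies on the same strand at 7189031 to 7190508, a span of 1478 bp with 2 annotated transcripts. GLYMA_13G046200 lies on the minus strand of chromosome 13 at 14043433 to 14044927, a span of 1495 bp with 1 transcript. Coordinates are those of the table, and no source used here names its genome build. How reads that fit more than 1 copy were assigned is also not given, so the split between copies is uncertain where their sequences are alike.

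Library totals were 65537749 to 67795796 counts in control and 63981150 to 67923813 in MSN. Ribosomal RNA took 0.0934 to 0.223% of counts in control, with the highest value in control replicate 2, and 0.109 to 0.126% in MSN. Log-scale profiles of all tested genes were closer within groups (Pearson correlation across genes 0.995 to 0.996) than between them (0.953 to 0.954). The titles call the replicates biological, but nothing says that they came from separate plants. The spread behind each p-value is therefore that of the libraries, which may be technical.

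All 3 copies were higher in every MSN library than in any control library. GLYMA_19G046800 had FPKM values (read fragments scaled by transcript length and library size, as deposited) of 4814, 4549.7 and 4869 in the control libraries and 10058, 10422.5 and 10454 in the MSN libraries. Its control replicate 2 was the lowest of its group, and the lowest MSN value was still above the highest control value by more than any spread within a group. The means were 4744 ± 171 and 10312 ± 220.3 FPKM (SD, n = 3), a ratio of 2.17, and the log2 fold change on TMM-scaled counts was 1.12 (SE 0.03).

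GLYMA_19G046600 had FPKM values of 2940.3, 3016 and 3091 in control and 6362, 6562 and 6499 in MSN. The 3 libraries of each group lay close together, with a coefficient of variation of 2.70% in control and 2.07% in MSN on scaled counts. The means were 3016 ± 75.3 and 6475 ± 102 FPKM (SD, n = 3), a ratio of 2.15 and a log2 fold change of 1.10 (SE 0.02). Its neighbour on chromosome 19, GLYMA_19G046800, thus had nearly the same fold at a higher level.

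GLYMA_13G046200 had FPKM values of 1837, 1781 and 1847 in control and 4922, 4945 and 5104 in MSN. This copy had the lowest level of the 3 and the largest ratio between groups, and its groups too did not overlap. The means were 1821 ± 35.7 and 4990.3 ± 98.97 FPKM (SD, n = 3), a ratio of 2.74 and a log2 fold change of 1.45 (SE 0.03). Over all tested genes, 32.8% had every MSN library above every control library, so the absence of overlap is common in these data, and nothing is read from it for genes chosen on this contrast. The folds were 1.08 to 1.16, 1.08 to 1.14 and 1.42 to 1.49 on the log2 scale for GLYMA_19G046800, GLYMA_19G046600 and GLYMA_13G046200 under 15 other processing settings. Quantile normalisation, which gives the top ranks of every library the same value, set both chromosome 19 genes to 0 and GLYMA_13G046200 to 0.80.

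**Figure D1:**
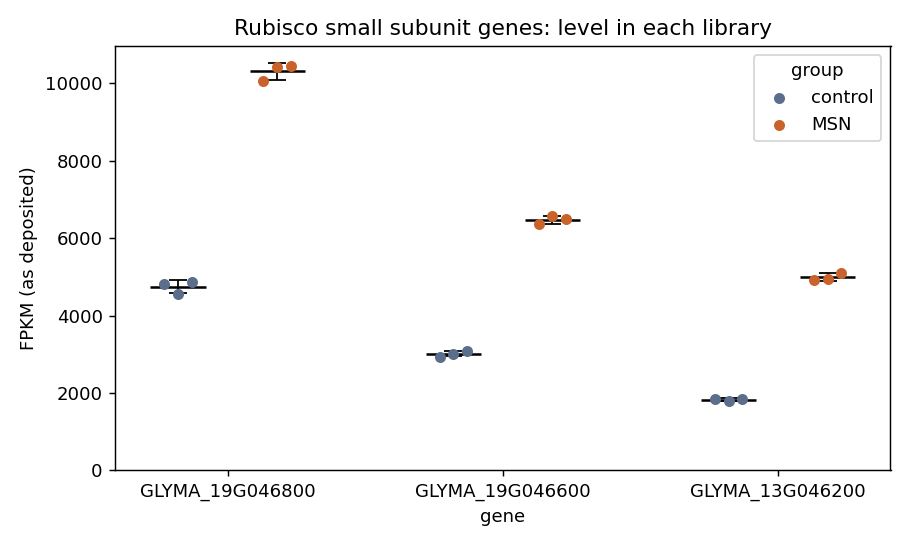
FPKM of the 3 Rubisco small subunit genes in each library, with control in blue and MSN in orange. Points are libraries, horizontal lines are group means and bars are SD (n = 3); for each gene the 3 MSN points lie above the 3 control points, with means of 10312 against 4744 for GLYMA_19G046800.

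The order of the copies was the same in all 6 libraries. Per length, GLYMA_19G046800 came out above GLYMA_19G046600 and GLYMA_19G046600 above GLYMA_13G046200, and within a group the lowest value of each lay above the highest value of the next. They were ranks 1, 2 and 3 of all genes by FPKM in each library. By raw count, which also grows with transcript length, the chromosome 19 copies held ranks 1 and 2 throughout, and GLYMA_13G046200 held rank 5 in the 3 control libraries and rank 3 in the 3 MSN libraries. The genes above it in control were GLYMA_10G251500, annotated to thiamine synthesis, with 2713 ± 113 CPM (counts scaled to a common library size), and GLYMA_20G141600, which the table names SUBI-1, with 2056 ± 70.0 CPM (SD, n = 3). In MSN these genes stood at 2974 ± 124 and 1654 ± 60.7 CPM, against 5557 ± 145 CPM for GLYMA_13G046200.

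Together the 3 copies took a share of all counts that was 2.28 times as large in MSN. The share was 0.988, 0.970 and 1.02% in the control libraries and 2.21, 2.27 and 2.29% in the MSN libraries. As a share of summed FPKM, which corrects for their short transcripts, it was 1.98 to 2.07% in control and 4.34 to 4.49% in MSN. The 10 genes with the most counts in each library held 2.23 to 2.31% of all counts in control and 3.69 to 3.80% in MSN. Computing the scaling factors without the 3 genes left the median log2 fold change of all genes at 0.01, the same to 2 decimals as with them.

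The measured make-up of this pool differed between groups, which is given as a description. GLYMA_13G046200 held 19.2, 19.1 and 18.8% of the summed FPKM of the 3 genes in the control libraries and 23.1, 22.5 and 23.1% in the MSN libraries. GLYMA_19G046800 held 48.7 to 50.2% in control and 47.1 to 47.5% in MSN, and GLYMA_19G046600 held 30.7 to 32.3% and 29.5 to 29.9%. The groups did not overlap for any of these shares, with the chromosome 13 copy larger in MSN and both chromosome 19 copies smaller. The 3 shares add up to the whole pool, so a larger share of any copy means a smaller share for the rest. Nothing is read from the lack of overlap, since the copies were chosen on this contrast. The split also depends on how reads that fit several copies were assigned, which is not given.

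Ratios between copies within a library do not depend on scaling. The log2 ratio of GLYMA_19G046800 to GLYMA_19G046600 in FPKM was 0.65 ± 0.06 in control and 0.67 ± 0.01 in MSN (SD, n = 3), with overlapping libraries, so the ratio of these neighbours did not move beyond its spread. The log2 ratio of GLYMA_19G046800 to GLYMA_13G046200 was 1.38 ± 0.02 in control and 1.05 ± 0.02 in MSN, and that of GLYMA_19G046600 to GLYMA_13G046200 was 0.73 ± 0.04 and 0.38 ± 0.03, both without overlap. In linear terms GLYMA_19G046800 was 2.60 times GLYMA_13G046200 in control and 2.07 times in MSN. No test was made, since the change of each copy chose the members.

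**Figure D2:**
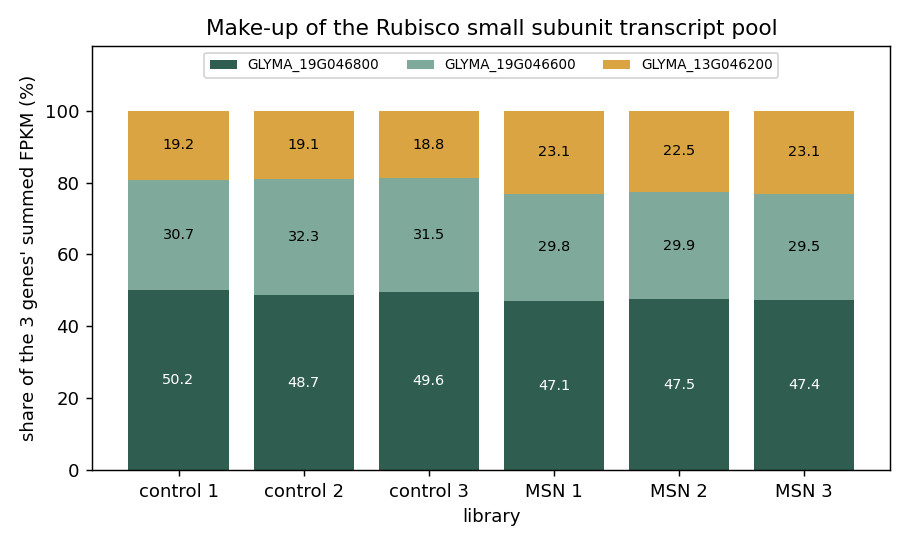
Share of the summed FPKM of the 3 Rubisco small subunit genes held by each copy, in percent, for the 6 libraries. The numbers in the bars are the shares; the GLYMA_13G046200 segment is 18.8 to 19.2% in control and 22.5 to 23.1% in MSN.

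The table annotates 6 genes with ribulose-bisphosphate carboxylase activity in all, and the other 3 are minor. The abundant copies held 99.9% of the counts of the 6 in each library. All 3 minor genes carry the same GO terms as the abundant ones but no KEGG orthology group. All 3 were higher in MSN by edgeR's quasi-likelihood test at an adjusted p threshold of 0.05. Over all 39203 tested genes, 29.6% were called higher and 29.7% lower. How reads that fit several Rubisco genes were assigned is not given. The part of reads from the abundant copies in the counts and rises of the minor genes was not tested.

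GLYMA_19G047000, on chromosome 19 at 7302271 to 7303631, had 835, 888 and 827 counts in control and 1972, 2202 and 1736 in MSN. Its mean was 12.8 ± 0.218 CPM in control and 30.0 ± 2.60 CPM in MSN (SD, n = 3), with a log2 fold change of 1.23 ± 0.07 SE (edgeR adjusted p = 4.07e-11), a ratio of 2.34. GLYMA_19G046900, at 7280255 to 7281335, had 8, 14 and 17 counts in control and 105, 59 and 211 in MSN. The MSN libraries were high but far apart (log2 fold change 3.29, SE 0.46, edgeR adjusted p = 5.94e-06). GLYMA_13G097100, on chromosome 13 at 21233949 to 21235640, had 0, 5 and 5 counts in control and 12, 27 and 24 in MSN (log2 fold change 2.63, SE 0.83, edgeR adjusted p = 0.0106). That call was lost without MSN replicate 2 (adjusted p = 0.0563), and no call could be made for the 2 genes of lowest count under a filter of 1 CPM in 3 libraries.

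The 4 Rubisco-annotated genes of chromosome 19 lie in a row on the plus strand. They span 114601 bp from 7189031 to 7303631, and the table lists no other gene between them. It holds no gene at 0 in all 6 libraries, so genes without counts may be missing from this stretch. The gaps are 63101 bp between GLYMA_19G046600 and GLYMA_19G046800, 25278 bp to GLYMA_19G046900 and 20935 bp to GLYMA_19G047000. Levels within the row ranged from 0.418 to 4744 FPKM in control means and from 4.28 to 10312 FPKM in MSN means.

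Genes around the copies were also read. Of 16 tested genes within 100 kb of a copy, the minor Rubisco genes included, 7 were higher and 4 lower in MSN. Without the Rubisco genes, 5 of 14 were higher and 4 lower, near the shares of 29.6% higher and 29.7% lower over all tested genes, so these counts are no result about the surroundings of the copies. The nearest tested gene upstream on chromosome 19, GLYMA_19G046400, rose from 4.98 to 8.45 CPM (log2 fold change 0.76, SE 0.12, edgeR adjusted p = 2.54e-05). Beside GLYMA_13G046200, at a distance of 5287 bp, GLYMA_13G046100 rose from 12.9 to 17.5 CPM (log2 fold change 0.44, SE 0.07, edgeR adjusted p = 3.93e-05). On its other side GLYMA_13G046300 had 0.285 CPM in the control mean and 0.231 in the MSN mean and did not pass (edgeR adjusted p = 0.685). GLYMA_19G047100, at 87945 bp beyond GLYMA_19G046800 and chosen after its values were seen, fell from 74.1 to 66.9 CPM (edgeR adjusted p = 0.0148). The number of lower neighbours was 2 without MSN replicate 2.

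Partners of Rubisco and the other Calvin cycle steps were read from a list of 138 genes by GO and KEGG terms, without the Rubisco genes. In MSN, 66 of the 128 tested genes were higher and 36 lower, while 26 missed the threshold, which is 51.6% higher and 28.1% lower. Over all tested genes 29.6% were higher and 29.7% lower, so the lower share of the list was near the background and the higher share above it. The median log2 fold change was 0.31, against 0.01 over all tested genes. The terms do not separate chloroplast from cytosolic enzymes, so glycolytic forms are in the list. The gene named for each step is the one of highest mean CPM over the 6 libraries, which does not correct for length. Per length it is also the highest of its step in both groups except for carbonic anhydrase, triose-phosphate isomerase and Rubisco assembly. For assembly the exception is in control only, with means of 123 FPKM for GLYMA_10G166900 and 133 FPKM for GLYMA_15G111400.

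Rubisco activase rose in 4 of 5 genes and fell in none, beside 29.6% higher and 29.7% lower over all tested genes. The most abundant, GLYMA_02G249600, had FPKM values of 25.5, 23.9 and 25.01 in control and 50.8, 52.0 and 52.5 in MSN, with no overlap (log2 fold change 1.06, SE 0.04, edgeR adjusted p = 2.18e-13). GLYMA_18G036400 rose from 52.2 ± 0.683 to 84.3 ± 3.02 CPM (SD, n = 3), or by 0.69 (SE 0.04) on the log2 scale. The fifth, GLYMA_03G068100, had means of 0.318 CPM (control) and 0.357 CPM (MSN) and did not pass (edgeR adjusted p = 0.804). The summed activase level was low beside Rubisco: the 3 small subunit genes together were 159 to 161 times the 5 activase genes in control, per length, and 189 to 191 times in MSN.

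The small subunit genes stood higher against phosphoribulokinase and chlorophyll-binding genes too. Their summed FPKM was 47.2 to 50.1 times that of the phosphoribulokinase genes, which make the substrate of Rubisco, in control and 74.7 to 76.8 times in MSN. Against the 52 genes annotated to chlorophyll binding, it was 2.01 to 2.07 times in control and 3.30 to 3.36 times in MSN. These ratios hold the chosen genes, so they are descriptions without a test. Carbonic anhydrase went the other way. Its 19 genes summed to 1292 to 1346 CPM in control and 3825 to 3940 CPM in MSN. That is a larger relative rise than that of the small subunit genes, whose share of counts was 2.28 times as large in MSN.

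For the assembly of Rubisco, which needs chaperones, 3 of 8 genes were higher, 3 lower and 2 did not pass. That is 37.5% each way, near the 29.6% higher and 29.7% lower over all tested genes, so these counts are no result about assembly. The most abundant of them, GLYMA_10G166900, had means of 281 ± 16.0 CPM (control) and 294 ± 17.6 CPM (MSN; SD, n = 3) and did not pass (edgeR adjusted p = 0.207), although it did without MSN replicate 1 (adjusted p = 0.0333), under upper-quartile scaling (0.0345) and under quantile normalisation (limma, 0.0474). Picked with their values in view, GLYMA_14G009900 rose from 40.0 to 86.9 CPM and GLYMA_15G111400 fell from 251 to 196 CPM (edgeR adjusted p = 1.72e-13 and 9.09e-08). The summed level of the 8 genes was 891 to 925 CPM in control and 879 to 901 CPM in MSN, so the ranges overlap.

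Among the genes of highest mean CPM in each step, that of carbonic anhydrase had the largest log2 fold change. Of 15 tested genes, 8 were higher and 4 lower, beside 29.6% higher and 29.7% lower over all tested genes. GLYMA_19G007700, highest by mean CPM, had 98.7, 98.0 and 99.6 FPKM in control and 346, 346 and 350.3 FPKM in MSN, again without overlap. In scaled counts it rose from 557 ± 8.43 to 1954 ± 25.3 CPM (SD, n = 3), by 1.81 ± 0.03 SE on the log2 scale (edgeR adjusted p = 1.92e-19). GLYMA_05G007100 was higher per length, with 359.9, 353.8 and 372 FPKM in control and 1008, 1048 and 1035 FPKM in MSN, and its groups did not overlap either. In scaled counts it rose from 609 ± 19.8 to 1728 ± 42.2 CPM (SD, n = 3), by 1.505 ± 0.03 SE on the log2 scale (edgeR adjusted p = 1.45e-17). GLYMA_06G182700, chosen after its values were seen, fell from 5.25 to 0.226 CPM (edgeR adjusted p = 4.37e-08).

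In the regeneration phase, 9 of 10 tested fructose 1,6-bisphosphatase genes were higher and 0 lower. The shares over all tested genes were 29.6% higher and 29.7% lower. GLYMA_18G030400, which the table also gives the enzyme number of sedoheptulose-bisphosphatase, rose from 158 ± 7.15 to 270.2 ± 6.44 CPM (SD, n = 3), or by 0.78 (SE 0.04) on the log2 scale. Both phosphoribulokinase genes rose, GLYMA_01G010200 from 226 ± 15.1 to 332 ± 12.6 CPM (log2 fold change 0.55, SE 0.04). Ribulose-phosphate 3-epimerase had 3 of 4 genes higher and ribose-5-phosphate isomerase 4 of 6, with none lower. Of 3 transketolase genes, which move 2-carbon units between sugars, 2 were higher and 1 lower. The most abundant, GLYMA_20G243500, rose from 379 ± 11.0 to 658 ± 21.2 CPM (SD, n = 3), or by 0.80 (SE 0.03) on the log2 scale.

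In the reduction phase and the steps shared with glycolysis, genes were called both higher and lower. Over all tested genes 29.6% were higher and 29.7% lower. For phosphoglycerate kinase, 3 of 5 tested genes were higher and 1 lower, and GLYMA_15G261900 rose by 0.54 on the log2 scale. For glyceraldehyde-3-phosphate dehydrogenase of the NAD+ type, 5 of 14 were higher and 5 lower, or 35.7% each way. That is near the shares over all tested genes, so these counts are no result about the step. The most abundant, GLYMA_16G044900, rose from 666 ± 38.3 to 1187 ± 58.9 CPM (SD, n = 3; edgeR adjusted p = 2.38e-12). Fructose-bisphosphate aldolase had 6 of 14 genes higher and 6 lower, with GLYMA_04G008300 higher by 0.51. Triose-phosphate isomerase had 4 of 6 higher and 1 lower. The lower gene, GLYMA_15G038100, is highest by mean CPM and fell from 145 ± 5.72 to 129 ± 1.92 CPM (SD, n = 3; edgeR adjusted p = 0.000702). Per length GLYMA_13G336200, chosen after its values were seen, was above it, at 171 ± 3.75 FPKM in control and 176 ± 1.71 FPKM in MSN (SD, n = 3), and did not pass (log2 fold change 0.04, SE 0.04, edgeR adjusted p = 0.357). The NADP+ type dehydrogenase of the chloroplast had no gene under its GO term. A gene found later by enzyme number, GLYMA_04G015900, is also among the NAD+ type genes counted above. It rose by 0.21 on the log2 scale (SE 0.03, edgeR adjusted p = 9.70e-06). Its call was lost only under quantile normalisation (limma adjusted p = 0.0795).

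**Figure D3:**
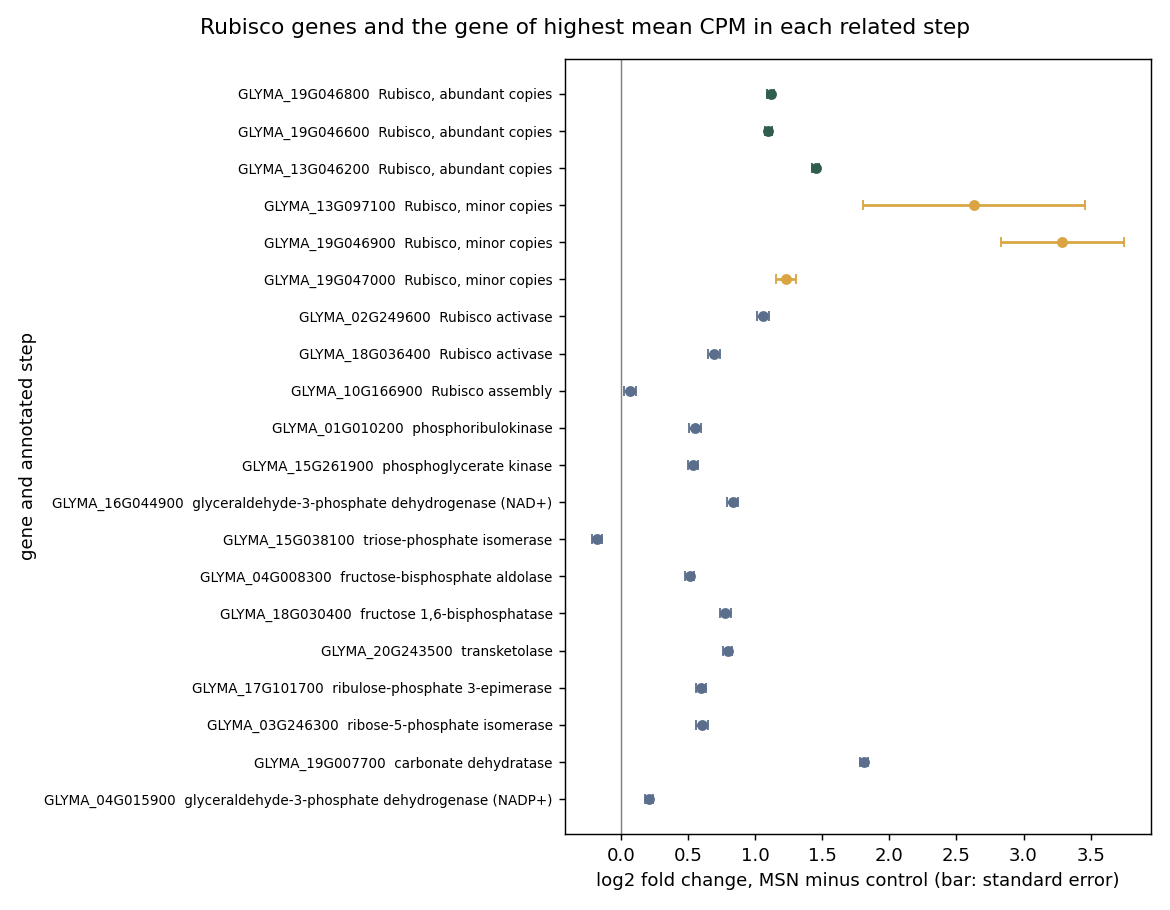
Log2 fold change, MSN minus control, for the 6 Rubisco-annotated genes and the gene of highest mean CPM in each related step (2 for activase), with standard errors as bars. The abundant copies lie at 1.10 to 1.45, most partner genes between 0 and 1, carbonate dehydratase GLYMA_19G007700 at 1.81 and triose-phosphate isomerase GLYMA_15G038100 below 0.

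Other very abundant transcripts did not share 1 direction. Of 14 other genes with a mean of at least 1000 CPM, 9 were higher and 5 lower in MSN (edgeR, adjusted p threshold 0.05). Over all tested genes 29.6% were higher and 29.7% lower. At this abundance small changes pass too, such as 0.13 on the log2 scale for GLYMA_10G251500, so the calls say little about size. The log2 fold changes of the 14 genes ran from -0.50 to 1.81, with a median of 0.17. Only the carbonic anhydrase genes GLYMA_19G007700 and GLYMA_05G007100 had larger log2 fold changes than the Rubisco copies among these 14. Among all tested genes, 3443 had a larger log2 fold change than GLYMA_19G046800, 3533 than GLYMA_19G046600 and 2080 than GLYMA_13G046200.

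**Figure D4:**
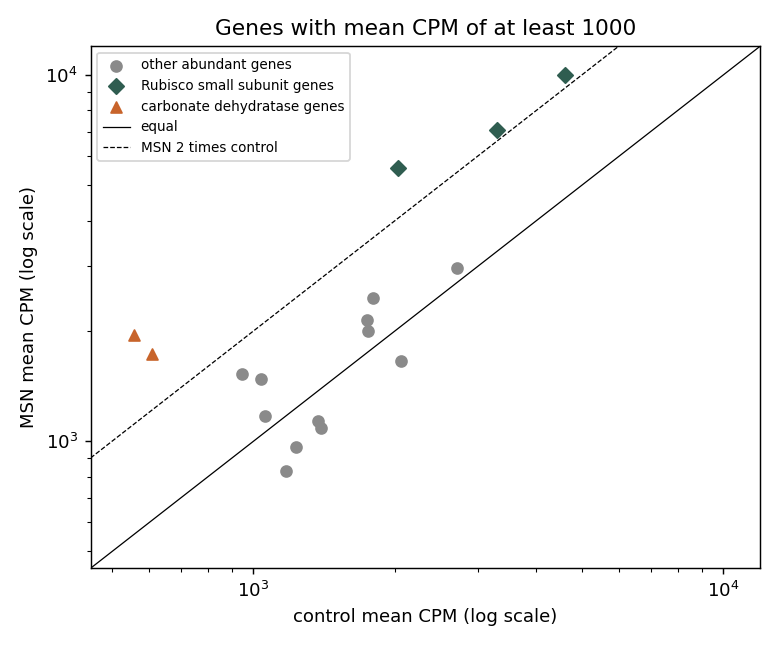
Mean CPM in MSN against mean CPM in control, both on log axes, for genes with a mean of at least 1000 CPM over the 6 libraries. The 3 Rubisco genes (diamonds) and the carbonate dehydratase genes (triangles) lie above the dashed line of a doubling, and the other 12 abundant genes (circles) lie below it.

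Some genes followed the copies closely over the 6 libraries, judged by the root mean square difference of log2 CPM centred on each gene's own mean, among 1622 other genes of at least 100 CPM. For GLYMA_19G046800 the closest were GLYMA_12G081300, annotated to superoxide dismutase activity, at 0.0235, GLYMA_12G037400, an aldolase gene, at 0.0259, and GLYMA_07G038500, a nutrient reservoir (germin-type term) gene, at 0.0282. For GLYMA_19G046600 they were GLYMA_17G247300 and GLYMA_11G037500, both ribosomal protein genes, at 0.0227 and 0.0277, and again GLYMA_07G038500 at 0.0229. For GLYMA_13G046200 they were GLYMA_18G028400, a light harvesting gene, at 0.0289, the carbonic anhydrase gene GLYMA_05G007100 at 0.0354 and GLYMA_08G126800, annotated to electron transfer with an iron-sulfur cluster, at 0.0394. The median over the genes compared was 0.595, 0.585 and 0.761, and between the copies themselves the value was 0.0361 for the chromosome 19 pair and 0.168 and 0.178 for each of them with GLYMA_13G046200. With only 2 groups, this measure mostly orders genes by how near their fold change is to that of the copy.

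Markers of the tissue and of other cell types were read beside the copies. Over all tested genes, 29.6% were called higher and 29.7% lower in MSN. Genes annotated to chlorophyll binding, which mark green tissue, were present at a summed 6603 to 6886 CPM in control and 9191 to 9641 CPM in MSN, with 37 of 49 tested genes higher and 3 lower. Phloem development genes moved the same way, with 15 of 18 higher and 0 lower and a summed 38.3 to 47.8 CPM in control against 102 to 119 CPM in MSN. Xylem development had 1 of 8 higher and 1 lower (9.32 to 11.1 against 8.79 to 9.15 CPM), and stomatal complex development 4 of 16 higher and 1 lower (69.7 to 78.1 against 63.7 to 66.4 CPM). Root development had 13 of 51 higher and 13 lower (1297 to 1319 against 1272 to 1282 CPM), and root hair elongation 1 of 2 each way (9.03 to 9.70 against 8.68 to 9.17 CPM). Nutrient reservoir genes, a seed term that also covers germin-type leaf proteins, had 14 of 48 higher and 12 lower, at 1609 to 1672 CPM in control and 2849 to 2977 CPM in MSN. No gene of the table is at 0 in all 6 libraries, so the table may leave out genes without counts. That every listed marker has some counts is therefore no result. In whole leaves, a change in the number of green cells and a change in message per cell cannot be told apart, and the part of these shifts in the Rubisco values was not tested.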

How the data were processed

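Polyadenylated RNA of 6 leaf libraries was sequenced, and 1 table of whole-number counts and FPKM per gene was deposited. Per the file headers, the deposited counts were not normalised, and the authors' FPKM values were scaled by length and library size. Per the submitters' processing notes, the software included DESeq2 1.34.0 and R 4.1.2, without saying for what. No source used here names the aligner, counting program, strand setting or genome build. Groups came from the titles.

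The main test was that of edgeR 4.0.16 under R 4.3.3 (glmQLFit and glmQLFTest, TMM scaling, filterByExpr, 2-sided) on 39203 genes, all 3 copies among them, with Benjamini-Hochberg adjustment over all of them and a threshold of 0.05. CPM values are TMM-scaled, and standard errors were derived from the F statistic. The common biological coefficient of variation was 0.0867. The code was tested on simulated data. DESeq2 1.42.0 and limma 3.58.1 (on log2 values) served as alternatives.

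Among counts of 1 to 12, the value 4 took 17.7 to 19.0% and the value 3 took 8.27 to 9.42% across the libraries, so single reads were not counted evenly at low values and no counting intervals are given.

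The members, lists and rules were chosen with earlier results of these data known. The named genes are the 3 copies, the other Rubisco-annotated genes, the gene of highest mean CPM in each step (2 for activase), the nearest tested neighbour on each side, the 3 genes of most similar pattern, and genes with more counts than the lowest copy in any library. Genes outside this rule are marked as chosen after their values were seen. Enzyme numbers were added for the steps without a GO match (sedoheptulose-bisphosphatase and the NADP+ type dehydrogenase) after the annotation was seen. Cuticle development had no gene under its GO term. None of the 3 identifiers was found in the reference gene table, and promoter motifs and protein sequences were not analysed here.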

Additional observations from a re-analysis of the deposited data

How the results depend on the processing

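The direction of GLYMA_13G046200 held under all settings, with 0.80 under quantile normalisation. That of GLYMA_19G046800 and GLYMA_19G046600 held under all settings except quantile normalisation, which gave 0. Both genes hold the top ranks by count in every library, which that method sets to the same values, so this 0 says nothing of direction. Upper-quartile scaling gave 1.14 for GLYMA_19G046600 and 1.49 for GLYMA_13G046200, more than 1 SD of replicates from the reported values. The share of the copies was 0.992% of counts in control and 2.26% in MSN, and 2.02 and 4.44% of summed FPKM. With 1 library left out in turn, the log2 fold changes ran from 1.08 to 1.14, 1.08 to 1.12 and 1.42 to 1.46 in the same gene order.

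The minor Rubisco genes numbered 1 of 1 higher under a filter of 1 CPM in 3 libraries. Of the neighbours, 2 were lower under upper-quartile scaling, quantile normalisation and a window of 50 kb, and 2 to 4 when 1 library was left out. A window of 250 kb gave 16 higher and 10 lower of 36. GLYMA_10G251500, higher by 0.13, turned to -0.65 under quantile normalisation and lost its call on log2(FPKM + 1) (limma adjusted p = 0.0689). On log2(FPKM + 1), whose pseudocount is large beside these levels, GLYMA_13G097100 came to 0.29 and GLYMA_19G046900 to 1.77. With genes of at least 1000 CPM only, 1 of the 3 closest genes was kept for GLYMA_13G046200 and 0 for the others. The closest genes not kept have means below 1000 CPM. The filter itself removed them, so these counts say nothing of how stable the order is. Same-numbered control and MSN libraries deviated together by correlations of -0.03 to 0.04, and other pairs by -0.08 to 0.08. These values show no sign of pairing by number, but so few pairs cannot exclude a paired design. Of the 6 libraries only control replicate 3 correlated best with its own number. With the replicate number as a block, 11280 genes were higher and 11461 lower, against 11594 and 11662 without it, and no named call changed.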
